A study of Drosophila melanogaster with 6 samples.

Results

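The genes described are the cuticle protein genes of Drosophila melanogaster, 122 of the 15904 rows of the deposited tables. A row was taken when one of its gene names starts with Cpr and a digit, Lcp, Ccp, Twdl or Edg, or is Pcp or Acp65Aa; no measured value entered the choice. The RNA came from eye discs, larval epithelia from which the adult eye forms, of wandering larvae late in the third instar, with 30 pairs of discs per library and 6 libraries in 3 groups of 2. All larvae were w1118 and carried sev-GAL4 with UAS-GFP. The RNAi-labelled group also carried the hsromegaRNAi transgene, directed against the long non-coding RNA of that name. The overexpression-labelled group also carried EP3037, an insertion meant to overexpress that RNA, and the control carried sev-GAL4/UAS-GFP alone. The sev-GAL4 driver is active only in a subset of retinal cells, while whole discs were sequenced.

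Insect cuticle is built from chitin fibres and proteins that an epithelium secretes on its apical side. Most of its proteins belong to the CPR family, which carry the chitin-binding Rebers and Riddiford domain. The Lcp (larval), Ccp and Pcp (pupal) genes, and Edg78E and Edg84A of the Edg genes, encode proteins of this kind. The Tweedle (Twdl) proteins are a second family, and a dominant TwdlD mutation alters the body shape of Drosophila larvae. Cuticle genes are switched on and off with each pulse of the moulting hormone ecdysone, and many lie side by side in the genome. In the eye, the cuticle of the adult is the corneal lens, which holds Cpr66D and Cpr72Ec protein and is laid down in the pupa.

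Values are FPKM, fragments scaled to transcript length and library size, so levels can be compared between genes. The authors deposited 1 pooled value per group, so no value per library, standard deviation or test across libraries could be had. Whether both libraries of a group were independent dissections is not stated, so the deposited p-values may measure technical spread alone. The depth is not stated. Among 1185 rows with transcripts of 900 to 1100 nt, the lowest non-zero values formed a band below 0.06 FPKM, with 1, 0 and 11 rows between 0.06 and 0.08 in RNAi-labelled, overexpression-labelled and control discs. If that band is a single fragment, an FPKM of 1 at this length stands for about 20.2, 21.1 and 23.0 fragments in those groups. The Hsromega RNA itself stood at 204 FPKM in RNAi-labelled discs, 376 in overexpression-labelled discs and 202 in control discs, with authors' deposited q of 0.997 and 0.758. The RNAi label was therefore not borne out by the level of its target in whole discs, and each direction given is that between labels. The eye disc label was checked with 12 eye disc markers, all of which were expressed: the Pax6 gene toy, for one, stood at 87.7, 93.7 and 107 FPKM in RNAi-labelled, overexpression-labelled and control discs. The markers were not even between groups. All 12 were lower in RNAi-labelled and 11 in overexpression-labelled discs than in control discs. For example, eya stood at 28.6, 21.5 and 71.2 FPKM in the same order of groups.

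A few cuticle protein genes were well expressed, most were near 0, and the summed levels of the Lcp, Edg and Ccp genes were lower in both treated groups than in the control, with single members such as Edg91 and Lcp3 as exceptions. Lcp65Ac, a larval cuticle protein gene, was the 1 gene that passed the authors' test: it fell to 4.34 FPKM in RNAi-labelled discs, against 25.01 in control discs. With the Benjamini-Hochberg adjustment of the authors' p recomputed over tested rows, its value was 0.310 and it did not pass. In the overexpression-labelled discs 0 cuticle genes passed. Other well expressed members, such as Cpr51A, Lcp65Ad and Cpr49Ag, differed little between the groups. Between the treated groups themselves, Cpr11B and Cpr49Ac lay furthest apart among members with a mean of 5 FPKM or more; no test of that pair was in the tables used here.

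The 122 rows hold 70 Cpr, 25 Twdl, 15 Lcp, 7 Ccp and 3 Edg genes, with Pcp and Acp65Aa. Of all these, 48 had a mean of 1 FPKM or more over the 3 groups and 22 a mean of 5 or more; 10 were listed at 0 in every group. Just outside and just inside the limit of 1 were Cpr47Ec, with a mean of 0.99 FPKM, and Cpr78Cb, with 1.004. In RNAi-labelled discs 44 members reached 1 FPKM, in overexpression-labelled discs 46 and in control discs 55. Summed over all members, the level was 846 FPKM in RNAi-labelled discs, 731 in overexpression-labelled discs and 1029 in control discs. Most of each sum came from Cpr genes, with 652, 486 and 662 FPKM in the 3 groups. These totals differed less than those of the Lcp genes at 96.7, 113 and 222, which include the row that joins Lcp9 with egg. Cpr49Ac alone was at 324, 123 and 240 FPKM, so the Cpr sums and those over all members depend heavily on 1 gene. The summed Twdl level was 24.97, 21.4 and 47.7 FPKM, that of the Edg genes 11.3, 8.21 and 25.5, and that of the Ccp genes 1.67, 0.958 and 5.33, each with the control highest. The FPKM totals over all rows were themselves uneven, at 1205880, 1245860 and 881816, with the control lowest. Of the 48 members with a mean of 1 FPKM or more, 30 (62.5%) were highest in the control, against 41.1% of all 9520 rows under that limit. Since both treated groups are set against the same control, their differences from it are not independent.

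**Figure D1:**
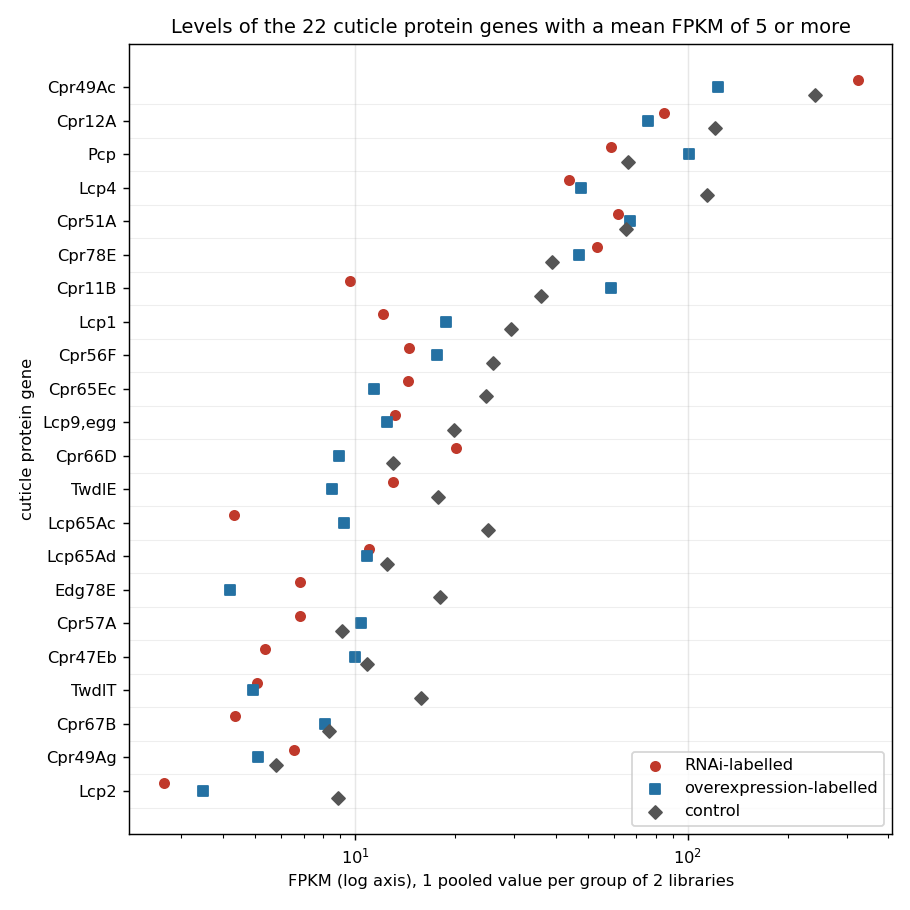
FPKM (log axis) of the 22 cuticle protein genes with a mean of 5 or more in RNAi-labelled (circles), overexpression-labelled (squares) and control discs (diamonds), each point a pooled value of 2 libraries with no error. Lcp4, Lcp1, Lcp2, Lcp65Ac, Edg78E and TwdlT have the control to the right of both treated groups, and Cpr11B has RNAi-labelled discs far to the left at 9.66.

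Members are short genes. Their median longest transcript in the annotation was 854 nt, against 1699 nt over all protein-coding genes, and 66.4% had 2 or fewer annotated exons, against 29.1%. They lie on all large arms, 47 on 3L, 33 on 3R, 27 on 2R, 8 on X and 7 on 2L, with 63 on the plus and 59 on the minus strand. By position, 92 of the 122 fell into 16 clusters of at least 3 members with gaps of 50 kb or less between the loci given in the tables. A deposited locus can be wider than its gene: that of TwdlT takes in RYa-R, and by the gene itself TwdlT lies beyond this gap from TwdlC, the first member of its cluster. Clustering did not go with a high level: of the 92 clustered members 31 had a mean of 1 FPKM or more, against 17 of the 30 that stand alone.

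In the RNAi-labelled discs, 35 of the 48 members with a mean of 1 FPKM or more stood lower than in control discs and 13 higher. The median log2 fold, on log2(FPKM + 0.1), was -0.57, against -0.026 over all 9520 rows under the same limit. At least a 2-fold lower value was seen for 18 of the 48 members (37.5%) and for 10.9% of all rows; 2 members (4.17%) and 3.89% of all rows were at least 2-fold higher. The limit on the level can favour rows that are high in one group, so these shares describe the rows that passed and not the whole family. With no limit, 81 of the 122 members were lower, 26 higher and the median was -0.42. By the authors' deposited q of 0.05 or less, 1 of 72 tested members was called lower and 0 higher. Over all 11314 tested rows 0.822% were called, 0.61% lower and 0.212% higher, so that a single call of 72 is a share near the background. With the Benjamini-Hochberg adjustment recomputed over these rows, 0 members were called, against 0.124% of rows, 0.053% lower and 0.0707% higher. Calls of other genes in RNAi-labelled discs given below are by the authors' deposited q. Most rows called by that q did not pass the recomputed adjustment.

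At the authors' deposited p of 0.05 or less, unadjusted, 7 of 72 tested members were lower in RNAi-labelled discs, 9.72% against 3.61% of all tested rows, and 2 were higher, 2.78% against 0.884%; in either direction 4.5% of all tested rows were at this p. The lower members at this p were Lcp65Ac, Cpr100A, Lcp4, Cpr31A, TwdlT, Lcp2 and Lcp1, and the higher ones Cpr72Ea and Cpr11A. Cpr31A and Cpr11A are named here after their values were seen. The error behind these folds is wide. The implied SE, taken as the log2 fold divided by the authors' deposited test statistic, had a median of 1.30 over the tested members, and 48 of 72 folds were smaller than their own implied SE. A p that misses the threshold therefore does not show that a member's level was the same in both groups.

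In the overexpression-labelled discs, 36 of the same 48 members stood lower than in control discs and 12 higher. The median log2 fold was -0.55, against 0.037 over all 9520 rows. A value at least 2-fold lower was found for 15 members (31.2%) and 12.8% of all rows, and at least 2-fold higher for 0 members and 4.29% of all rows. With no limit on the level, 77 of 122 members were lower, 33 higher and the median was -0.21. By the authors' deposited q, 0 of 75 tested members were called, against 1.2% of 11372 rows, 1.06% lower and 0.132% higher. With the Benjamini-Hochberg adjustment recomputed over these 11372 rows, 0 rows were called in either direction. Every call of another gene in overexpression-labelled discs given below therefore rests on the authors' deposited q. At an unadjusted p of 0.05 or less, 3 members were lower, 4% of those tested against 5.58% of all rows, and 1 was higher, 1.33% against 0.58%; in either direction the share was 6.16% of all rows. The share of members lower at this p was thus not above the background. The 3 were Lcp4, Ccp84Aa and Lcp65Ac, and the higher one was Lcp65Ag1, named after its value was seen, which is listed at 0 in control discs and at 0.746 FPKM here.

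Transcript length bears on both comparisons, since the fold of all genes ran from positive among short transcripts to negative among long ones. The running median at the members' lengths was 0.23 for RNAi-labelled and 0.41 for overexpression-labelled discs, above 0 where the members' medians were below 0. Among 3846 other rows of the same length range, the median log2 fold was 0.15 for RNAi-labelled discs, with 34.6% lower, and 0.29 for overexpression-labelled discs, with 26.8% lower. The corresponding shares of the 48 members were 72.9% and 75%. With the trend subtracted, the members' median was -0.73 for RNAi-labelled and -0.82 for overexpression-labelled discs, so the members lay further below genes of their own length than below all genes. Members were also less abundant, with a median of the mean level of 4.23 FPKM against 12.9 over those other rows. The part of that difference in level in the result was not tested.

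**Figure D2:**
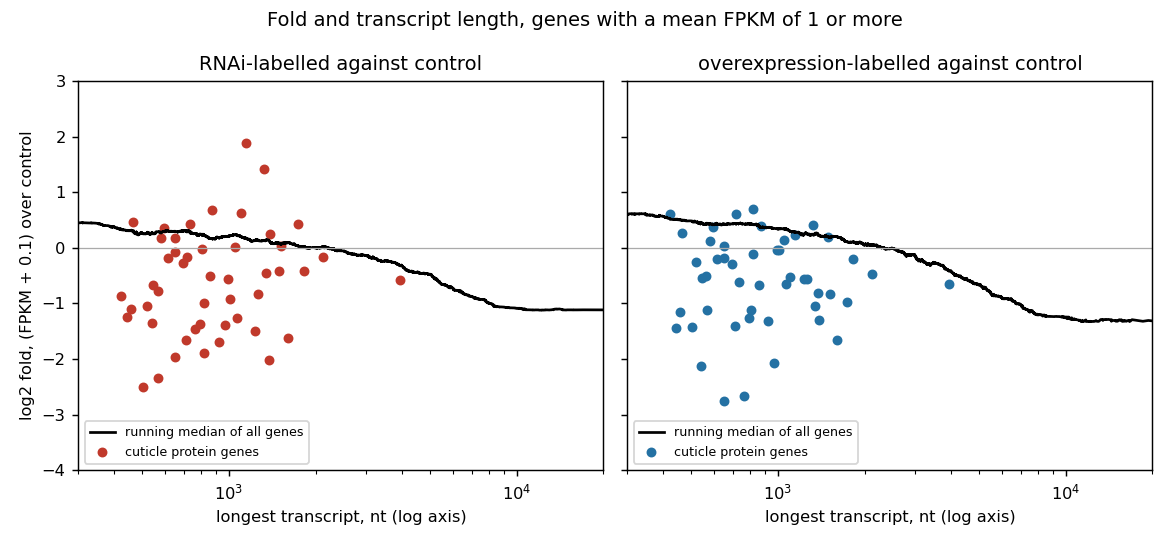
Log2 fold of FPKM + 0.1 against the longest annotated transcript (log axis, nt), for RNAi-labelled against control discs (left) and overexpression-labelled against control discs (right). The line is the running median of all genes with a mean of 1 FPKM or more, and the 48 cuticle protein genes (points) have medians of -0.57 and -0.55 where the line is at a median of 0.23 and 0.41 over their lengths.

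Families with at least 4 such members were described by their medians. Of 9 Lcp rows with a mean of 1 FPKM or more, 8 were lower in RNAi-labelled discs with a median log2 fold of -1.05, and 9 were lower in overexpression-labelled discs with a median of -0.65. One of these rows, lower in both, joins Lcp9 with egg and cannot be given to either gene. Of 30 Cpr genes, 19 and 20 were lower, with medians of -0.46 and -0.49 and a wide spread around them. All 4 Twdl rows above the limit had lower values in both treated groups, at medians of -0.43 and -0.68, but 2 of them, TwdlZ and the row that joins CG32568 with Twdlalpha, have folds far smaller than their implied SE of 8.46 and 4.83 for RNAi-labelled discs and cannot be read. Of 3 Edg genes 2 were lower in each treated group, and 1 Ccp gene, Ccp84Aa, passed the limit.

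**Figure D3:**
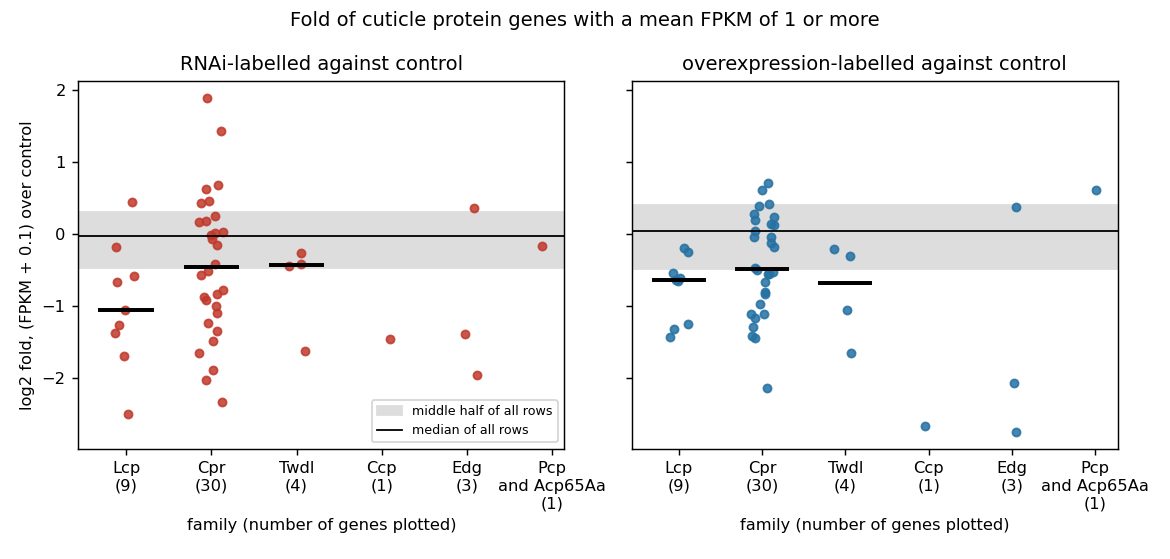
Log2 fold of FPKM + 0.1 over control by family for RNAi-labelled (left) and overexpression-labelled discs (right); each point is a gene with a mean of 1 FPKM or more, bars are medians for families with at least 4 such genes. The thin line and the grey band are the median and interquartile range of all rows; the Lcp medians lie at -1.05 and -0.65.

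The cluster of Lcp1 to Lcp4 encodes the major larval cuticle proteins of the last larval stage, on 8.38 kb of chromosome 2R. Its highest member, Lcp4 (dm6, chromosome 2R, 8437647 to 8438495, plus strand), was at 43.9 FPKM in RNAi-labelled discs, 47.7 in overexpression-labelled discs and 114 in control discs. Both treated groups were thus below 0.5 of the control level, at log2 folds of -1.38 and -1.26 with an implied SE of 0.79 each, and authors' deposited q of 0.137 and 0.197. Lcp1, on the minus strand, was at 12.1, 18.7 and 29.3 FPKM in the same order of groups. Lcp2 next to it was at 2.66, 3.48 and 8.86 FPKM, a log2 fold of -1.73 for RNAi-labelled and -1.35 for overexpression-labelled discs. Lcp1, Lcp2 and Lcp4 were therefore highest in the control. Lcp3, which lies between Lcp2 and Lcp4, did not share this order: it stood at 4.17 FPKM in RNAi-labelled, 1.96 in overexpression-labelled and 3.05 in control discs. The median log2 fold of the 4 genes was -1.32 for RNAi-labelled and -0.95 for overexpression-labelled discs.

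The largest expressed cluster, from Lcp65Ag3 to Cpr65Az on 31.2 kb of chromosome 3L, holds 18 rows of which 5 had a mean of 1 FPKM or more. Lcp65Ac (dm6, chromosome 3L, 6144819 to 6145393, plus strand, 2 exons) was at 4.34 FPKM in RNAi-labelled discs, 9.23 in overexpression-labelled discs and 25.01 in control discs. Its log2 fold was -2.53 with an implied SE of 1.003 and an authors' deposited q of 0.0260 for RNAi-labelled discs, and -1.44 with an implied SE of 0.97 and q of 0.262 for overexpression-labelled discs. Its neighbour Lcp65Ad had nearly the same value in the 3 groups, at 11.0, 10.9 and 12.5 FPKM. The remaining expressed members were all highest in the control. Lcp65Af was at 2.29, 4.05 and 4.86 FPKM in RNAi-labelled, overexpression-labelled and control discs, Lcp65Ag2 at 2.54, 2.81 and 4.12 and Cpr65Ay at 1.30, 1.11 and 3.21. Acp65Aa, an adult cuticle gene inside the cluster, was low, at 0.0937, 0.508 and 0.902 FPKM.

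The cluster also holds the near-identical pairs Lcp65Ab1 with Lcp65Ab2 and Cpr65Ax1 with Cpr65Ax2, whose 4 rows were listed at 0 in every group. The tables name both copies of the first pair Lcp65Ab2. The sources used here do not say how fragments matching 2 copies were divided, so these zeros are uncertain. Cpr76Ba, Cpr76Bb, TwdlJ, TwdlR, TwdlD and TwdlK were likewise listed at 0 throughout.

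**Figure D4:**
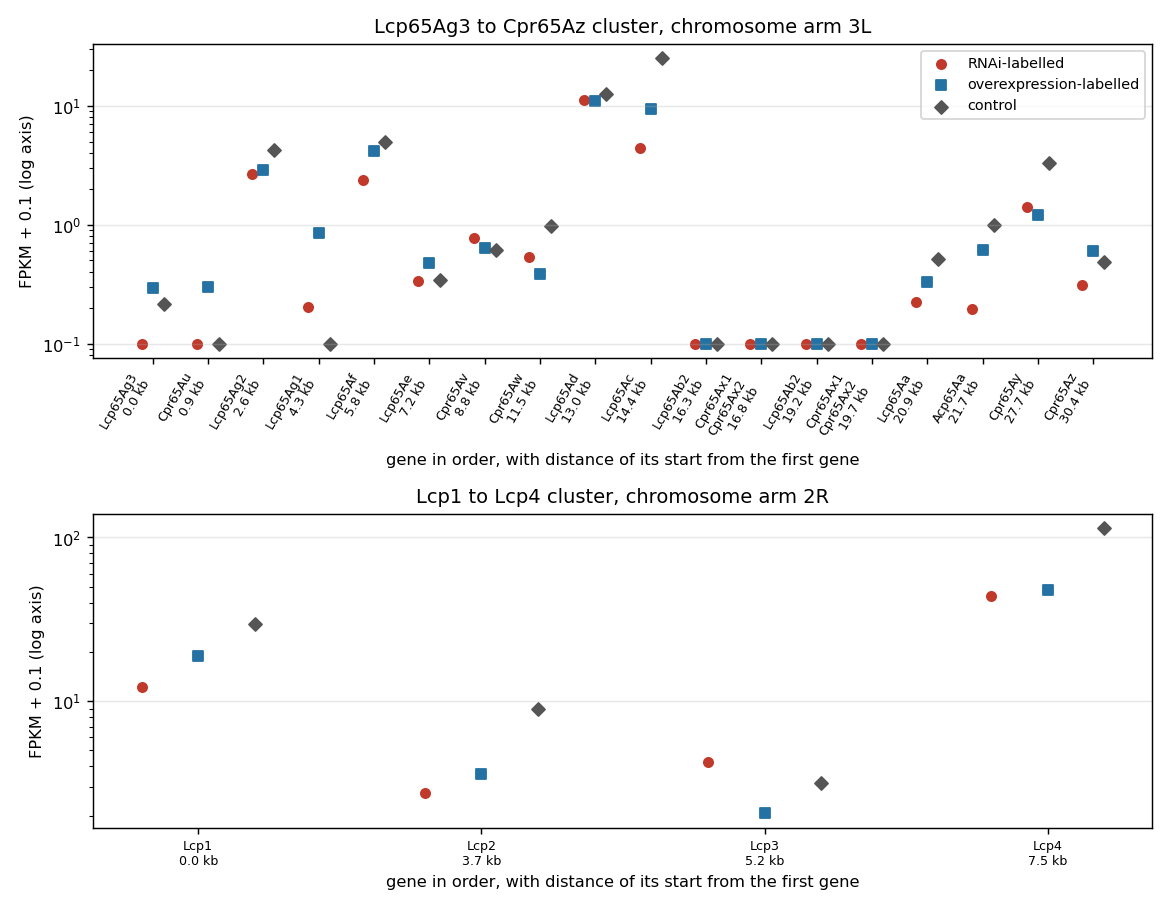
FPKM + 0.1 (log axis) of every member of the Lcp65Ag3 to Cpr65Az cluster (top) and the Lcp1 to Lcp4 cluster (bottom), in genomic order with the distance of each start from the first gene, in RNAi-labelled (circles), overexpression-labelled (squares) and control discs (diamonds). Points at the bottom of the upper panel are rows listed at 0; Lcp65Ac and its neighbour Lcp65Ad differ in pattern although both are highest in the control, at 25.01 and 12.5.

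The Edg genes are known in Drosophila for their expression in imaginal discs once an ecdysone pulse has declined, and Edg84A is a target of the nuclear receptor FTZ-F1. Edg78E (chromosome 3L, 21296763 to 21297803, minus strand) was at 6.81 FPKM in RNAi-labelled discs, 4.22 in overexpression-labelled discs and 18.0 in control discs. That is a log2 fold of -1.40 and -2.09 with implied SE of 1.05 and 1.11, and authors' deposited p of 0.1096 and 0.0510, unadjusted. Edg84A was at 1.18, 0.642 and 4.90 FPKM, so the control was again highest, by 4.14-fold over RNAi-labelled and 7.63-fold over overexpression-labelled discs. Edg91 showed no such order, at 3.31, 3.35 and 2.57 FPKM. Edg84A is the first gene of the Ccp84A cluster on chromosome 3R, whose 8 members summed to 2.85 FPKM in RNAi-labelled, 1.60 in overexpression-labelled and 10.2 in control discs. Ccp84Aa, the highest Ccp gene, was at 0.900, 0.330 and 2.64 FPKM, with an authors' deposited q of 0.487 and 0.239.

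Among Tweedle genes, TwdlE and TwdlT alone had a mean of 5 FPKM or more. TwdlT (chromosome 3R, 27049220 to 27051004, plus strand) was at 5.07 FPKM in RNAi-labelled, 4.94 in overexpression-labelled and 15.8 in control discs. Its log2 folds of -1.64 and -1.68 were alike, with an authors' deposited q of 0.232 and 0.308. TwdlT lies in an intron of RYa-R, on the same strand. TwdlE was at 13.0, 8.51 and 17.7 FPKM; its exons overlap lectin-28C on the other strand, and the sources used here do not say whether counting used strand. The 12 genes from TwdlM to TwdlD, on 21.9 kb of chromosome 3R, summed to 0.166, 0.425 and 0.719 FPKM in the 3 groups and were close to undetected. Those from TwdlF to TwdlV (sums of 1.13, 1.34 and 2.43 FPKM) and from TwdlX to Twdlalpha on X (4.69, 5.06 and 7.99) were low as well. The X-linked rows share a deposited locus, and TwdlX, with an implied SE of 10.3 for RNAi-labelled discs, shows how wide their error is, so no fold of theirs can be read.

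The Cpr genes with the highest levels varied in their order of groups. Cpr49Ac (chromosome 2R, 12386666 to 12390057, plus strand), the highest of all members, was at 324 FPKM in RNAi-labelled, 123 in overexpression-labelled and 240 in control discs. The next highest, Cpr12A, was at 84.8, 75.7 and 121 FPKM, while Cpr51A stayed within 61.8 to 66.9 FPKM in all groups. Cpr78E was higher in both treated groups, at 53.5 and 47.1 FPKM, than in control discs at 39.0. The lowest authors' deposited q of these 4 genes in either comparison was 0.563, for Cpr49Ac in overexpression-labelled discs. Pcp, a pupal cuticle protein gene that lies on the opposite strand within an intron of Gart, was at 58.7 FPKM in RNAi-labelled, 101 in overexpression-labelled and 65.9 in control discs. Cpr56F at 14.5, 17.6 and 25.97 FPKM and Cpr65Ec at 14.4, 11.4 and 24.7 were highest in the control. The row that joins Lcp9 with egg, a histone methyltransferase gene, was at 13.2, 12.5 and 19.8 FPKM, and its value cannot be given to either gene.

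Cpr100A (chromosome 3R, 30867521 to 30869184, plus strand) was at 1.86 FPKM in RNAi-labelled, 4.45 in overexpression-labelled and 7.88 in control discs. Its authors' deposited q for RNAi-labelled discs, 0.0664, was the lowest among members after that of Lcp65Ac, at a log2 fold of -2.09 with an implied SE of 0.97. Cpr72Ea showed the reverse order in RNAi-labelled discs, at 6.175 FPKM, against 1.89 in overexpression-labelled and 1.59 in control discs, a log2 fold over control of 1.96 with an implied SE of 1.008 and an authors' deposited q of 0.1004. Its neighbours Cpr72Eb, at 2.68, 1.20 and 2.72 FPKM, and the lens gene Cpr72Ec, at 0.800, 0.683 and 0.812, did not share this order. Cpr66D, the other lens gene, was at 20.1 FPKM in RNAi-labelled, 8.94 in overexpression-labelled and 13.0 in control discs. Both lens genes were thus detected, and neither passed the test.

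Set directly against each other, the RNAi-labelled and overexpression-labelled discs had no common offset in cuticle genes. Of the 48 members, 26 were higher and 22 lower in RNAi-labelled discs, and the median log2 difference was 0.034, against -0.029 over all rows. These members were less abundant than all rows under the same limit, with a median of the mean level of 4.23 FPKM against 11.5. The part of that in the shares that follow was not tested. Single members lay further apart than rows in general: 8 were at least 2-fold higher (16.7%, against 2.45% of all rows) and 5 at least 2-fold lower (10.4%, against 3.16%). At a mean of 5 FPKM or more this was 2 of 22 members each way (9.09%), against 1.78% and 2.12% of all rows. Among these 22 the widest gap was that of Cpr11B, at 9.66 FPKM in RNAi-labelled and 58.9 in overexpression-labelled discs, 6.10-fold apart, with control discs at 36.1 between them. Cpr11B (chromosome X, 12553124 to 12554235, plus strand) lies in an intron of hwt, and its authors' deposited p against control was 0.0538 and 0.368. Cpr49Ac was 2.64-fold and Cpr66D 2.25-fold higher in RNAi-labelled than in overexpression-labelled discs, and Lcp65Ac 2.13-fold lower. Cpr47Eb, Cpr67B and Pcp were also lower in RNAi-labelled discs, by log2 differences of -0.89, -0.90 and -0.78, and Edg78E and TwdlE higher, by 0.69 and 0.61.

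**Figure D5:**
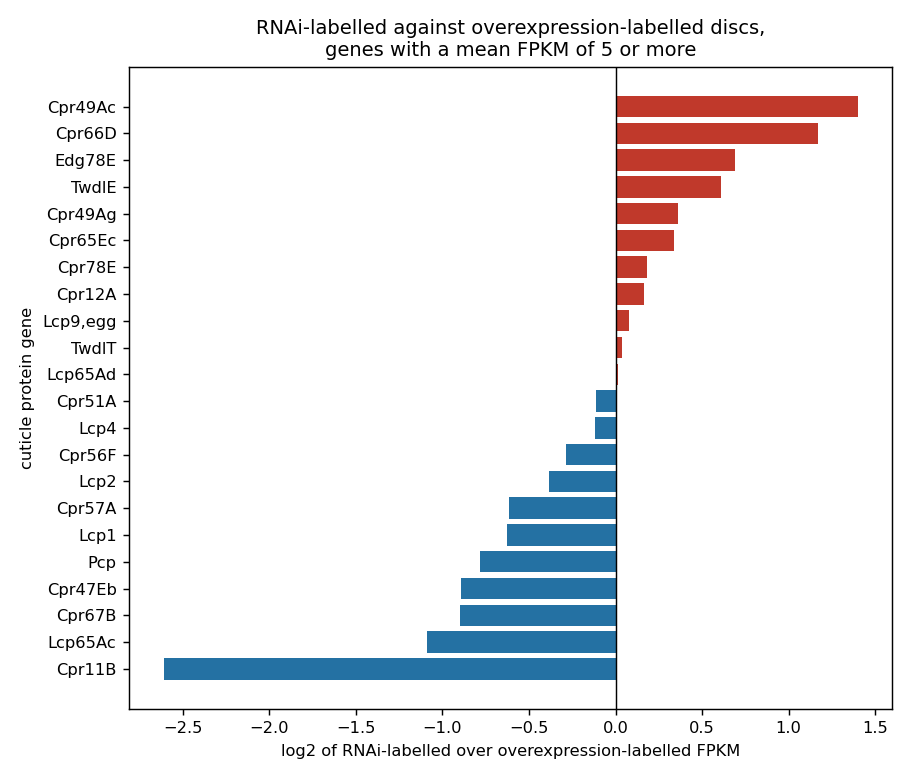
Log2 of RNAi-labelled over overexpression-labelled FPKM for the 22 cuticle protein genes with a mean of 5 or more; bars to the right are higher in RNAi-labelled discs, and no error is available. Bars fall on both sides of 0, from -2.61 for Cpr11B to 1.40 for Cpr49Ac.

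Other genes of cuticle formation did not move as a block. Of 7 tested chitin synthesis genes 0 were called in either comparison, with medians of 0.060 and 0.048 for RNAi-labelled and overexpression-labelled discs. The chitin synthase gene kkv was lower in both, at 18.4 and 16.2 FPKM, against 40.7 in control discs, with an authors' deposited q of 0.427 and 0.287. Of 24 tested genes of chitin organisation and turnover 0 were called, at medians of -0.27 and -0.15. Its members with the smallest p stood lower in both treated groups. The chitin deacetylase genes verm, at 68.7 and 46.5 FPKM against 171 in control discs, and serp, at 66.7 and 33.2 against 108, had authors' deposited q of 0.0673 and 0.0983 for overexpression-labelled discs. Also lower were the chitin-binding protein gene obst-A, at 78.8 and 77.8 FPKM against 232, and the chitinase gene Cht6, at 13.4 and 9.59 against 43.1.

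Of 20 tested tanning and pigmentation genes 0 were called. In each treated group 12 of 20 had higher values, against 4549 of all 9520 rows in RNAi-labelled and 4975 in overexpression-labelled discs. Their medians were 0.21 and 0.15, or 0.10 and 0.080 with the length trend subtracted. The dopa decarboxylase gene Ddc was at 11.2 FPKM in RNAi-labelled, 7.96 in overexpression-labelled and 3.67 in control discs, with an authors' deposited q of 0.170 and 0.503. The gene b, which makes the beta-alanine used in tanning, was at 45.6, 16.1 and 21.3 FPKM. Of 13 tested genes listed for the apical matrix, most with a zona pellucida domain, 0 were called in overexpression-labelled discs. In RNAi-labelled discs zye fell to 0.404 FPKM, against 3.09 in control discs (authors' deposited q of 0.0074). The medians of this list were -0.23 and -0.67. Ecdysone-timed and epidermal transcription factors had medians of -1.30 and -1.61, with 0 and 2 called lower of 16 tested by the authors' deposited q. Of the 2, called only by that q, Blimp-1 fell in overexpression-labelled discs to 5.53 FPKM, against 35.1 in control discs, and crol to 15.5, against 71.4. The genes of this list are long, with a median transcript of 6692 nt, and with the length trend subtracted their medians were -0.45 and -0.61. The FTZ-F1 gene ftz-f1, given here as the regulator of Edg84A and chosen after its values were seen, was at 1.28, 1.59 and 3.09 FPKM and was not called. It is also a long gene, at 6060 nt, and its part in the level of Edg84A was not tested.

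Markers of tissues that can be carried along with the discs differed between the groups beside the cuticle genes. Of 8 tested salivary gland markers 4 were called higher in RNAi-labelled discs, where the list summed to 3296 FPKM, and 0 of 7 in overexpression-labelled discs at 83.8, against 53.0 in control discs; ng1, ng2 and ng4 were at 0 in every group. Of 8 tested fat body markers 4 were called higher in RNAi-labelled discs (sum of 193 FPKM) and 0 in overexpression-labelled discs (104), against 54.5 in control discs. Of these 4, Fbp1 was at an authors' deposited p of 5e-05, as were the 4 salivary gland markers. Lsp2, Lsp1gamma and the row that joins CG42847 with Fbp2 were at 0.0001, 0.00385 and 0.00165. Those 3 rows did not pass the Benjamini-Hochberg adjustment recomputed over tested rows. Gut markers had 3 of 8 called higher in overexpression-labelled discs (166 FPKM), and 0 of 4 in RNAi-labelled discs (5.29), against 3.78 in control discs. Muscle markers had 0 called and summed to 2063, 3317 and 2932 FPKM. Of 14 with a mean of 1 FPKM or more, 12 were lower in RNAi-labelled and 5 in overexpression-labelled discs. The myosin gene Mhc was at 60.6, 194 and 191 FPKM. The muscle troponin gene TpnC47D, which lies inside the Cpr47Ea to Cpr47Eg cluster, was at 14.3, 58.7 and 38.5 FPKM. Tracheal markers had 0 called of 8 and summed to 448, 345 and 654 FPKM. Gasp, verm, serp and pio among them are also on lists above. Of the 8 tracheal markers with a mean of 1 FPKM or more, 7 were lower and 1 higher in each treated group. Among them vvl was at 2.94, 1.74 and 5.40 FPKM, and the tracheal regulator trh, in a row with CR45378, at 2.17, 2.06 and 2.47. Haemocyte markers summed to 113, 113 and 167 FPKM, with 0 of 12 called for RNAi-labelled discs and 1 of 11, lz, lower for overexpression-labelled discs; lz is also on the eye disc list. Antennal disc markers summed to 109, 92.6 and 202 FPKM with 1 and 2 of 6 called lower. All 6 were lower in both treated groups, at median log2 folds of -1.40 and -1.63. Eye disc markers summed to 223, 208 and 389 FPKM with 0 and 2 of 12 called lower. Of these, 12 and 11 were lower, at medians of -1.16 and -1.37. With the length trend subtracted, medians were -1.16 and -1.31 for antennal and -0.62 and -0.96 for eye disc markers. A lower median in both treated groups was thus not particular to the cuticle genes. The part of these tissues in the levels of the cuticle genes was not tested, and fewer cells of a type cannot be told apart from less RNA per cell in whole discs.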

How the data were processed

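Total RNA depleted of ribosomal RNA was made into strand-specific libraries and sequenced as paired 50 nt reads, per the labels' protocols. Cuffdiff 2.1.1, Cufflinks, Bowtie and TopHat were used with the dm6 build, per the submitters' processing notes; the sources used here give neither annotation nor settings. The 2 tables hold FPKM, pooled by the authors over the 2 libraries of a group, per the file headers. They also hold the deposited test statistic, a score, and the deposited p-value and q-value of Cuffdiff; an unnamed deposited column with another unit marks p of 0.05 or less. Calls are those of the authors at q of 0.05 or less, and signs were turned to treated over control. No library-level fit could be made. Folds of single genes were computed from FPKM without a pseudocount, and medians on log2(FPKM + 0.1) for rows with a mean of 1 FPKM or more over the 3 groups.

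Of the rows, 98.6% matched a gene of the Ensembl 115 annotation of dm6, used for lengths, strands and 1-based coordinates; 637 rows, 4 of them cuticle genes, join several genes. The length trend is a running median of 250 genes on each side, tested on simulated data. Python 3.11.15, numpy 2.4.6 and pandas 2.3.3 were used. Members and lists were chosen with earlier results of these data known. The 33 members named by rule were those called, the 12 highest by mean, up to 5 per direction with the largest fold at 5 FPKM or more, and the highest of each family and cluster. Others complete a cluster or were named after their values were seen. From each list of other genes, named genes are among the 4 with the smallest p, except toy, trh, ftz-f1, Gasp, ng1, ng2 and ng4.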

Additional observations from a re-analysis of the deposited data

How the results depend on the processing

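The median fold of the cuticle genes kept its sign in both comparisons with the control under every alternative run: it ranged from -0.73 to -0.42 for RNAi-labelled discs and from -0.82 to -0.21 for overexpression-labelled discs over other pseudocounts (1 and 0.01), no limit or a limit of 5 FPKM, recentring on all rows, subtraction of the length trend, and leaving out joined rows, the most extreme member or, added after seeing the data, members with overlapping exons. The number of members called moved with the rule: for RNAi-labelled discs 1 by the authors' q became 0 with Benjamini-Hochberg recomputed over tested rows and 9 at unadjusted p, and for overexpression-labelled discs 0 became 4 at unadjusted p. The RNAi-labelled over overexpression-labelled median turned to -0.050 at 5 FPKM or more. In the Lcp65Ag3 to Cpr65Az cluster that difference turned to 0.043 with the length trend subtracted, and with no limit the RNAi-labelled median became -0.40 and the overexpression-labelled median 0, with 8 of 18 rows lower and 6 higher. The Twdl medians became -1.03 for RNAi-labelled and -1.36 for overexpression-labelled discs at 5 FPKM or more, where 2 genes are left. The cause of these moves was not tested, apart from the smaller number of genes. No paired analysis was possible because the tables hold 1 pooled value per group, and for the same reason no library could be left out.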

Other observations

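Genes that share the chromosomal clusters with cuticle genes but belong to other families gave a mixed picture. Of 34 such rows, 10 had a mean of 1 FPKM or more, of which 7 were lower in RNAi-labelled and 6 in overexpression-labelled discs, at median log2 folds of -0.26 and -0.27. Inside the Cpr49A cluster CG8501 was higher in both treated groups, at 15.6 and 14.2 FPKM, against 6.05 in control discs, at unadjusted p of 0.0622 and 0.0940 in the authors' deposited table. Inside the Ccp84A cluster 6 of 8 cuticle genes were lower in RNAi-labelled discs and 2 higher. Only 2 of the 8, Edg84A and Ccp84Aa, had a mean of 1 FPKM or more, so the other signs rest on low values. The non-coding RNA pncr002:3R in this cluster was at 3617 FPKM in RNAi-labelled, 2892 in overexpression-labelled and 3225 in control discs. These rows were looked at after the values of the clusters were seen.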
